A study of Mus musculus with 50 samples.

Results

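Cholesterol is made in the cytosol and endoplasmic reticulum from acetyl-CoA through the mevalonate pathway, and the same pathway supplies isoprenoids for the prenylation of small GTPases. The genes of its enzymes share a transcription factor, SREBP-2, which is held in the endoplasmic reticulum membrane by the sterol-sensing pair of SCAP and an INSIG protein and is cut free in the Golgi when sterols run low. Growing cells need the pathway for new membranes, and insulin signalling is known to act on the SREBP proteins in other tissues.

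Expression was followed for 8 genes of this system: *Hmgcs1*, *Idi1*, *Fdps*, *Fdft1*, *Sqle* and *Lss*, which encode enzymes from the start of the mevalonate pathway to the closure of the sterol ring, and *Srebf2* and *Insig1*, which encode SREBP-2 itself and one of its retention proteins. They were taken by gene name, as a set put together with earlier results of these data known, and all 8 were found among the 37701 genes of the RPKM table. All 8 also cleared the minimum of 0.5 RPKM in the mean, as did 16733 genes in all, and were tested. None of the 8 encodes an uptake receptor, so uptake genes were followed as a separate list.

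The tumors came from female p53R270H/+WAPCre mice, which were 8 weeks old when the exposure began and older when the tumors were taken, and in which Cre under the whey acidic protein promoter puts a heterozygous p53 point mutation into mammary epithelium, so that every group carried the same alleles. Mice were injected under the skin every other day with vehicle, insulin, glargine, X10 or IGF1 until a mammary tumor grew, and the tumors were isolated at 1 cm3, 24 h after the last injection. Glargine and X10 are modified insulins, X10 and IGF1 being the ligands with the stronger action on the IGF1 receptor, and the doses are not in the labels. Each of the 5 groups held 10 tumors, 50 in all, which had been picked for a mesenchymal (EMT-like) appearance and for a latency near the median of their group. The vehicle tumors are titled untreated in the labels, and single tumors are named here by group and mouse number (vehicle_174). The sequence sample numbers in the labels run in blocks by treatment, so whatever goes with these numbers and treatment cannot be told apart.

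Library sizes, recovered from the steps between low RPKM values, were between 26.6 and 51.9 M reads, and the group medians ran from 35.3 M reads in X10 to 44.0 M reads in vehicle. At this depth a tumor gave between 163 reads (*Idi1*, lowest) and 10041 reads (*Srebf2*, highest) for one of the 8 genes. The 95% intervals given are for differences between group means, with an error taken from the spread between tumors. The mesenchymal gene *Vim* was at 1094 RPKM or more in every tumor. The summed RPKM of the 8 epithelial markers ranged from 11.3 in IGF1_158 to 4556 in vehicle_174, the tumor that also had the lowest summed mesenchymal markers (1116 RPKM), so the tumors were not equally EMT-like. Since whole tumors were sequenced, fewer cells of a type and less RNA per cell cannot be told apart.

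Promoter sequence from RefSeq (GRCm38.p6, 250 bases before to 50 after the annotated start) was at hand for *Hmgcs1*, *Lss*, *Srebf2*, *Insig1* and *Idi1*, that is 5 of the 8 genes; *Sqle*, *Fdft1* and *Fdps* had no entry. These windows are shown because the members moved together between tumors, as described further on. Both strands were searched for the sterol regulatory element bound by SREBP-2 (letters TCACNCCAC), for the NF-Y box CCAAT and for the Sp1 box GGGCGG. The stretch upstream of both the RefSeq and the GENCODE start is printed for 4 genes on the plus strand, with capitals for the sterol regulatory element and for ATTGG, which is the NF-Y box read on the opposite strand.
Hmgcs1, chr13:119690101-119690350: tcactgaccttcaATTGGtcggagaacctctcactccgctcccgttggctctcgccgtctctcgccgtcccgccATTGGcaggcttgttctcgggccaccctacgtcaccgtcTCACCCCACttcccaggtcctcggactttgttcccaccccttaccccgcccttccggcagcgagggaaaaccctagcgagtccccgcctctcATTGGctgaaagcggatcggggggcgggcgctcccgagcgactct
Lss, chr10:76531355-76531587: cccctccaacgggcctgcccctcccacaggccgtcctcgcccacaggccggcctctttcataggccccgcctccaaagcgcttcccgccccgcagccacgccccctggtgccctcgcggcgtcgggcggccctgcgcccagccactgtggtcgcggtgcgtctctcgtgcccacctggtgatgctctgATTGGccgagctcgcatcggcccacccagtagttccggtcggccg
Srebf2, chr15:82147019-82147180: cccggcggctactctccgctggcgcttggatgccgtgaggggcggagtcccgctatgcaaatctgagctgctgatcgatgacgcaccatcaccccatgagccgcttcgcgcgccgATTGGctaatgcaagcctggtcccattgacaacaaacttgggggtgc
Insig1, chr5:28071162-28071362: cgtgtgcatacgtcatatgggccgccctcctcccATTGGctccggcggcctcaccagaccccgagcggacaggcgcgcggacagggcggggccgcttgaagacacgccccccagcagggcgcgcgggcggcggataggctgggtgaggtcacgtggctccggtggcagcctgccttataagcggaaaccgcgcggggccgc

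The sterol regulatory element letters occurred in 1 of the 5 windows, that of *Hmgcs1*, against 1.24% of all 32851 promoter windows of the same length. The NF-Y box occurred in 5 of 5 windows, each time on the strand opposite to the gene, against 37.4% of all windows, and the Sp1 box also in 5 of 5, against 35.7%. The 2 NF-Y boxes of *Idi1* lay 45 and 14 bases before the RefSeq start (offsets of -45 and -14) and inside the transcript as GENCODE draws it, so that window is not printed. No match overlapped a match of another motif in the stretches shown. Only exact letters were counted, so a window without a match may still hold a variant of the element. Such matches describe the letters only.

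Levels differed between the genes, and their order depended on the gene length behind the RPKM. As deposited, mean RPKM over the 50 tumors was 32.7 for *Fdps*, 31.9 for *Idi1*, 29.9 for *Srebf2*, 25.9 for *Sqle*, 16.9 for *Hmgcs1*, 10.5 for *Fdft1*, 9.77 for *Insig1* and 8.00 for *Lss*. The length that gave the steps of the *Idi1* values was 745 bases, whereas its longest coding transcript in GENCODE M21 has 3027 bases, and for *Lss* these lengths were 2305 and 4667 bases. Per kilobase of the longest coding transcript, *Idi1* came to 7.86 and *Lss* to 3.95 reads per kilobase and M reads, while *Srebf2* and *Fdps* shared the highest level at 29.4. The neighbours *Srebf2*, *Fdps* and *Sqle* (25.4) had ranges over tumors that overlapped broadly. Comparisons of a gene between tumors do not depend on the length.

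The enzymes of the early, isoprenoid-making steps varied widely between tumors. *Hmgcs1* (ENSMUSG00000093930, GRCm38 chr13:119690379-119708260) encodes the cytosolic synthase that makes HMG-CoA, and its RPKM ran from 6.22 over a median of 16.0 to 39.3, a 6.31-fold range. *Idi1* (ENSMUSG00000058258, chr13:8885501-8892451) encodes the isomerase that sets up the building blocks of isoprenoid chains. Its RPKM ran from 5.84 in IGF1_160 over a median of 29.0 to 80.2 in X10_113, a 13.7-fold range and the widest of the 8. *Fdps* (ENSMUSG00000059743, chr3:89093588-89101959), the farnesyl diphosphate synthase gene, ran from 16.9 over 29.8 to 76.4 RPKM. The SD of log2(RPKM + 0.5) over the tumors was 0.70 for *Idi1* and 0.42 for the median tested gene, and 81.4% of tested genes had a smaller SD than *Idi1*.

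The enzymes committed to sterols had a similar range. *Fdft1* (ENSMUSG00000021273, chr14:63145150-63179578), whose product joins farnesyl units into squalene, ran from 3.88 in IGF1_158 over a median of 9.67 to 25.8 RPKM in vehicle_195. *Sqle* (ENSMUSG00000022351, chr15:59315077-59331192), the squalene epoxidase gene and a rate-limiting step of the sterol branch, ran from 7.33 over 25.4 to 54.2 RPKM. *Lss* (ENSMUSG00000033105, chr10:76531588-76557138), whose product closes the ring to lanosterol, ran from 2.89 over 7.67 to 13.8 RPKM.

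The regulators differed in their spread. *Srebf2* (ENSMUSG00000022463, chr15:82147181-82205379) was the steadiest of the 8, from 16.5 over a median of 31.0 to 45.6 RPKM, a 2.76-fold range, and 34.9% of tested genes had a smaller SD. *Insig1* (ENSMUSG00000045294, chr5:28071363-28078662), which is itself a SREBP target, ran from 3.47 over 8.75 to 21.8 RPKM, a 6.27-fold range. In each of the 8 genes the ranges of the 5 treatment groups overlapped.

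**Figure D1:**
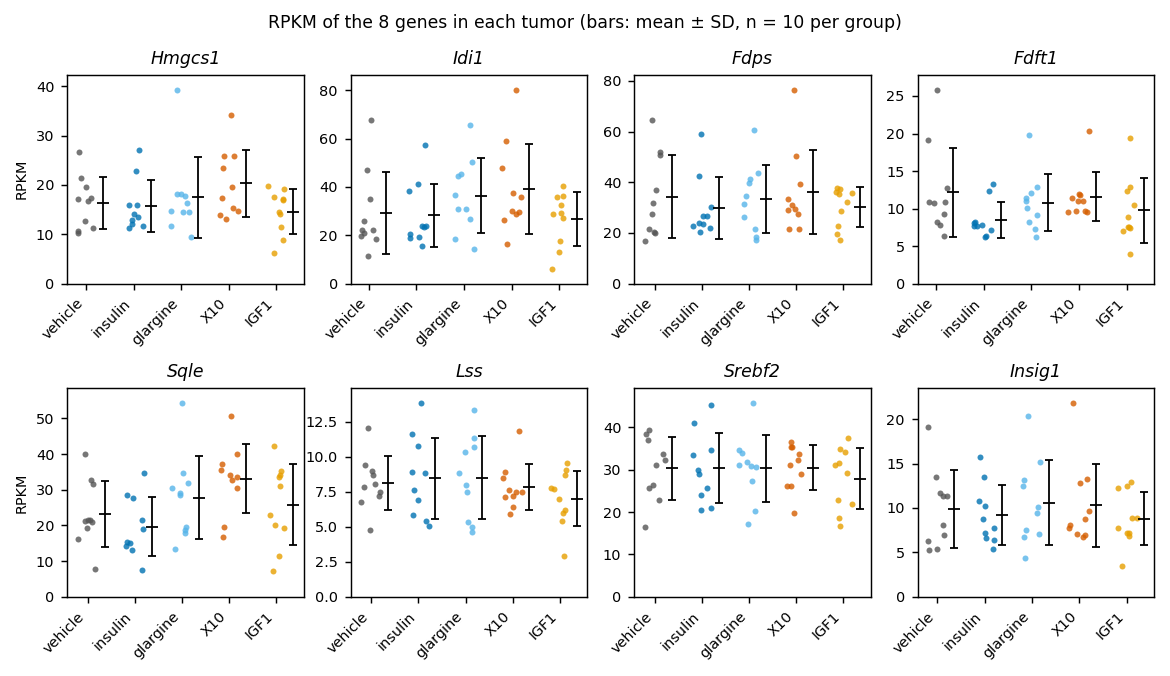
RPKM (vertical axis, linear from 0) of each of the 8 genes in every tumor, by treatment group; each point is 1 tumor, and the black bars give the mean ± SD of 10 tumors. The 5 groups overlap in every panel, and single tumors such as X10_113 and glargine_62 lie above the rest of their group.

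The question put to these genes was whether chronic exposure to a ligand changed their level in the tumors. No difference between groups passed the test in any of the 8 genes: limma on log2(RPKM + 0.5) called 0 of 8 in each of the 7 comparisons of groups and in the F test over the 5 groups, at an adjusted p under 0.05. Fold changes below are on the log2(RPKM + 0.5) scale. The 4 comparisons with vehicle share the same 10 vehicle tumors.

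In insulin-treated compared with vehicle-treated tumors 0 of 8 genes were called, with a background of 0% of all tested genes called. *Fdft1* had the lowest value relative to vehicle, with a mean RPKM of 8.45 ± 2.41 against 12.2 ± 5.93 (SD, n = 10 each). In insulin tumors *Fdft1* ran from 6.14 over a median of 7.73 to 13.3 RPKM, and in vehicle tumors from 6.33 over 10.8 to 25.8. The groups overlapped, and 8 of 10 insulin tumors lay below the vehicle mean. The log2 fold change of *Fdft1* was -0.43 (SE 0.21, 95% interval -0.84 to -0.01, limma adjusted p = 0.439), and with epithelial, adipocyte and skeletal muscle marker scores as covariates it was -0.26 (limma adjusted p = 0.719). The highest *Fdft1* values of the vehicle group were in vehicle_195 (25.8 RPKM) and vehicle_174 (19.1 RPKM), where the epithelial markers summed to 1858 and 4556 RPKM, and the part of these markers in the difference was not tested further. *Fdft1* was the single one of the 8 genes with an unadjusted limma p under 0.05, where 11.1% of all tested genes had one. The median log2 fold change was -0.06 over the 8 genes and 0.03 over all tested genes.

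In glargine-treated tumors 0 of 8 were called against vehicle, beside 0% of all tested genes, and 0 of 8 had an unadjusted limma p under 0.05, beside 6.23% of all tested genes. *Idi1* showed the highest fold change of the 8, at 0.36 (SE 0.30, interval -0.25 to 0.97, limma adjusted p = 0.859), with 36.4 ± 15.5 RPKM in glargine and 29.2 ± 16.8 RPKM in vehicle (SD, n = 10 each). *Srebf2* hardly differed in the mean, at 30.3 ± 7.86 RPKM in glargine and 30.3 ± 7.39 RPKM in vehicle, and the interval of its log2 fold change ran from -0.33 to 0.33. The median log2 fold change was 0.04 over the 8 genes and 0.02 over all tested genes, and that of the 8 was -0.06 without X10_113, glargine_62 and IGF1_160.

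In X10-treated tumors 0 of 8 were called against vehicle, beside 0.0657% of all tested genes, and 0 of 8 had an unadjusted limma p under 0.05, beside 11.0%. *Sqle* was nearest, with 33.1 ± 9.63 RPKM in X10 and 23.3 ± 9.22 RPKM in vehicle (SD, n = 10 each). *Sqle* ran from 16.6 over a median of 33.9 to 50.5 RPKM in X10 tumors and from 7.79 over 21.3 to 40.1 RPKM in vehicle tumors. The groups overlapped, although 8 of 10 X10 tumors lay above the vehicle mean. The log2 fold change of *Sqle* was 0.54 (SE 0.27, interval 0.00 to 1.09, limma adjusted p = 0.455). *Idi1* followed with 0.46 (SE 0.30, interval -0.14 to 1.07, limma adjusted p = 0.584), and 9 of 10 X10 tumors were above its vehicle mean. *Hmgcs1* was at 20.3 ± 6.84 RPKM in X10 and 16.4 ± 5.31 RPKM in vehicle, giving 0.30 as log2 fold change (SE 0.21, limma adjusted p = 0.608). *Lss*, *Srebf2*, *Fdft1*, *Insig1* and *Fdps* lay between -0.04 and 0.11. The median log2 fold change was 0.09 over the 8 genes and -0.03 over all tested genes, and that of the 8 was -0.01 without the same 3 tumors. The X10 group had the lowest median library size. Over the 50 tumors all 8 genes had a negative r with library size (median -0.15), although 0 of 8 passed at an adjusted permutation p under 0.05, and with library size as a covariate *Sqle* in X10 against vehicle had a log2 fold change of 0.44 (limma adjusted p = 0.746).

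In IGF1-treated tumors 0 of 8 were called against vehicle, beside 0.00598% of all tested genes, and 0 of 8 had an unadjusted limma p under 0.05, beside 8.84%. The fold changes ran from -0.30 for *Fdft1* (SE 0.21, interval -0.72 to 0.12, limma adjusted p = 0.746) to 0.09 for *Sqle* with 7 of 8 below 0. With epithelial, adipocyte and skeletal muscle scores as covariates *Fdft1* was at -0.05 (limma adjusted p = 0.997). The median log2 fold change was -0.13 over the 8 genes and 0.02 over all tested genes, and that of the 8 was -0.03 without the 3 tumors. The tumors IGF1_158 and IGF1_160 held between them the lowest value of the group in each of *Hmgcs1*, *Sqle*, *Fdft1*, *Lss*, *Srebf2*, *Insig1*, *Idi1* and *Fdps*.

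With the 20 X10 and IGF1 tumors set against the other 30, as the study grouped them, 0 of 8 were called beside 0.155% of all tested genes, and 0 of 8 had an unadjusted limma p under 0.05, beside 10.5%. *Sqle* had the highest fold change, 0.31 (SE 0.18, interval -0.04 to 0.67, limma adjusted p = 0.552), with 14 of 20 tumors above the mean of the others. *Lss* had the lowest, -0.14 (SE 0.12, interval -0.38 to 0.09, limma adjusted p = 0.75), with 14 of 20 tumors below.

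The modified insulins were also compared with insulin itself. In glargine against insulin 0 of 8 were called, beside 0% of all tested genes, and 0 of 8 had an unadjusted limma p under 0.05, beside 3.96%. *Sqle* was at 27.8 ± 11.7 RPKM in glargine and 19.7 ± 8.38 RPKM in insulin (SD, n = 10 each), which gave 0.50 as its log2 fold change (SE 0.27, interval -0.04 to 1.05, limma adjusted p = 0.99). In X10 against insulin 0 of 8 were called, beside 0.102% of all tested genes, and *Sqle* and *Fdft1* had an unadjusted limma p under 0.05, beside 11.3%. *Sqle* in insulin tumors ran from 7.61 over a median of 17.3 to 34.7 RPKM, so the X10 and insulin groups overlapped. Its log2 fold change was 0.79 (SE 0.27, interval 0.24 to 1.33, limma p = 0.00567 and adjusted p = 0.196), and 9 of 10 X10 tumors were above the insulin mean. *Fdft1* had a log2 fold change of 0.44 (SE 0.21, interval 0.02 to 0.86, limma adjusted p = 0.404), from 9.51 over a median of 11.0 to 20.3 RPKM in X10, and 10 of 10 X10 tumors were above the insulin mean. *Idi1* had 0.45 (interval -0.15 to 1.06, limma adjusted p = 0.593) with 9 of 10 X10 tumors above the insulin mean, and *Hmgcs1* had 0.35 (interval -0.07 to 0.77, limma adjusted p = 0.539) with 7 of 10 above. *Fdps* was at 0.24 (interval -0.24 to 0.72), *Insig1* at 0.13 (interval -0.35 to 0.61), *Srebf2* at 0.03 (interval -0.30 to 0.36) and *Lss* at -0.06 (interval -0.43 to 0.31), *Lss* being at 0.02 with quantile normalization. The median log2 fold change in X10 against insulin was 0.30 over the 8 genes, with 7 of 8 above 0, and -0.07 over all tested genes, and the median of the 8 was 0.19 without X10_113, glargine_62 and IGF1_160. In glargine against insulin these medians were 0.15 and -0.01, and that of the 8 was 0.06 without the same 3 tumors. Doses are not given in the labels, so these comparisons are of the labelled groups only.

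**Figure D2:**
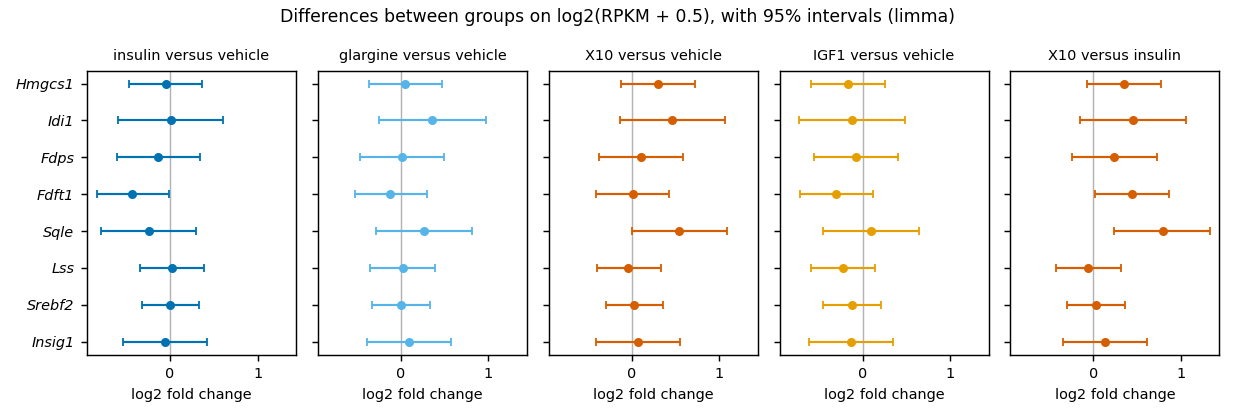
Log2 fold changes of the 8 genes (horizontal axis, on log2(RPKM + 0.5)) for 5 comparisons of groups, with points for the limma estimate and bars for its 95% interval. The intervals of *Sqle* and *Fdft1* in X10 against insulin and of *Fdft1* in insulin against vehicle lie off 0 before adjustment for the 16733 genes tested, and none of the 8 genes passed after it.

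The F test over the 5 groups called 0 of 8, beside 0.102% of all tested genes, and 0 of 8 had an unadjusted limma p under 0.05, beside 13.1%. The smallest was *Sqle* (limma p = 0.0684, adjusted p = 0.423). In simulated data with these group sizes, a log2 change of 1 in X10 against vehicle was recovered in 78.5% of 200 changed genes and a change of 0.5 in 16.0%. The changed genes were drawn from all tested genes, whereas 11 genes were called in the real comparison. The SD within groups was 0.51 in the median of the 8 genes, from 0.37 for *Srebf2* to 0.69 for *Idi1*. It was 0.41 for the median tested gene, so the recovered shares do not carry over to the 8 genes.

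While treatment groups were not told apart by these genes, single tumors were, since the 8 genes rose and fell together. Over the 50 tumors each of the 28 pairs of the 8 genes had a positive Pearson r, between 0.35 and 0.83 with a median of 0.61, and the median Spearman rho was 0.58. By comparison, the median r of these genes with all other tested genes was 0.01, and 0.0837% of those values lay above the median pair. Two-sided permutation tests with 100000 resamples passed for 28 of 28 pairs after Benjamini-Hochberg adjustment over the 28, for r and for rho. Pairs remained positive after centring within treatment groups (median r 0.62) and without the 2 tumors farthest from the median of one gene (median r 0.56), and 28 of 28 passed in each.

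*Hmgcs1* and *Idi1* were the closest pair, with r = 0.83 and rho = 0.78 (permutation p = 1e-05 for each, the smallest that the resamples can give, adjusted p = 1.75e-05 and 2.15e-05) and r = 0.78 without the 2 farthest tumors. *Idi1* and *Fdps*, which act one after the other, had r = 0.77 and rho = 0.77. *Srebf2* was related to *Idi1* and to *Fdps* with r = 0.74 each, and it had the highest median r with the other 7 genes, 0.71, although its own range was the narrowest. *Fdft1* and *Insig1* were the loosest pair, with r = 0.35 and rho = 0.38 (permutation p = 0.0131 and 0.00666, adjusted p = 0.0131 and 0.00666). Without X10_113, glargine_62 and IGF1_160, tumors at the ends of the range, that pair had r = 0.20 (adjusted permutation p = 0.175), and it was the single pair of the 28 that no longer passed.

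**Figure D3:**
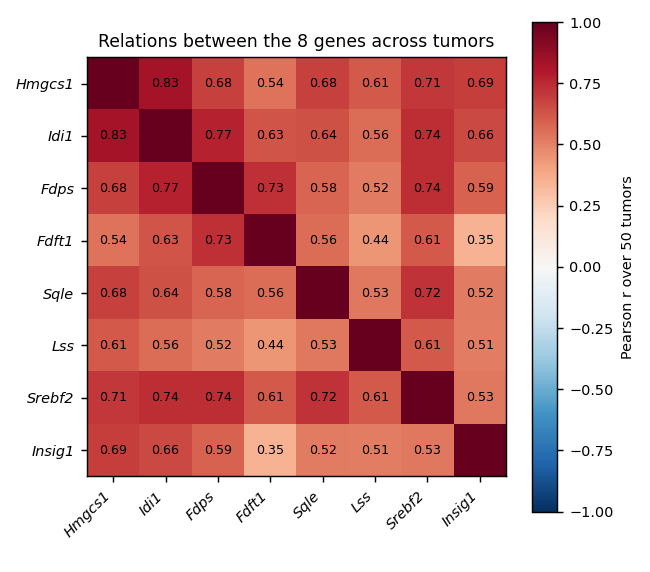
Pearson r of log2(RPKM + 0.5) over the 50 tumors for each pair of the 8 genes, printed in each square and coloured from -1 to 1. All pairs are above 0, from 0.35 for *Fdft1* and *Insig1* to 0.83 for *Hmgcs1* and *Idi1*.

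Within the groups of 10 tumors the median r over the 28 pairs was 0.40 in vehicle, 0.82 in insulin, 0.76 in glargine, 0.48 in X10 and 0.74 in IGF1. Positive pairs numbered 25 of 28 in vehicle, 27 of 28 in X10 and 28 of 28 in the other groups. Whether the groups differed in this respect was not tested.

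The mean z-score of the 8 genes placed each tumor on one scale. It was highest in X10_113 (1.88), glargine_62 (1.87) and insulin_15 (1.35) and lowest in IGF1_160 (-2.13), IGF1_158 (-1.61), glargine_53 (-1.49) and vehicle_186 (-1.34). All 8 genes were above their means in 7 tumors and below in 11 tumors. In X10_113 the z-scores of the single genes ran from 0.79 for *Srebf2* to 2.48 for *Fdps*, and in IGF1_160 from -0.76 for *Fdft1* to -3.14 for *Lss*. The tumor vehicle_195 was split, with *Fdft1* at 2.76 and *Lss* at -0.43. Group medians of the mean z-score lay between -0.55 in insulin and 0.22 in glargine, and every group held tumors above and below 0.

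**Figure D4:**
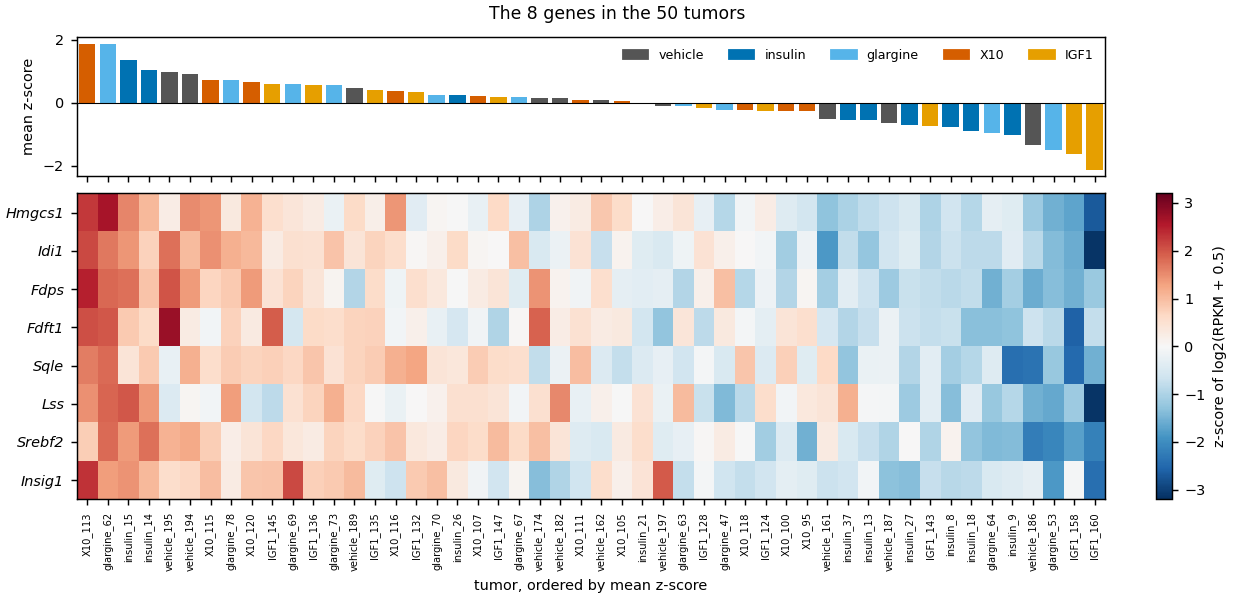
The 50 tumors ordered by the mean z-score of the 8 genes (top, bars coloured by treatment group) and the z-score of log2(RPKM + 0.5) of each gene in the same order (bottom, colour scale). Colours of the treatment groups are mixed along the order, from X10_113 at 1.88 to IGF1_160 at -2.13.

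Among the other 16725 tested genes, those whose pattern over the 50 tumors was most like the mean z-score included genes of the same pathway. *Cyp51*, the lanosterol demethylase gene, had r = 0.88, and *Msmo1*, the methylsterol monooxygenase gene, had r = 0.86. High values were also found for *Gm13502* (0.72), *Gm5873* (0.68), *Gm3571* (0.67), *Nsdhl*, a sterol demethylation enzyme gene (0.66), and *Stard4*, a cytosolic sterol carrier gene (0.66). *Gm13502* is a pseudogene copy of *Idi1*, identical over 684 aligned bases, and *Gm3571* and *Gm5873* are copies of *Fdps* with 98.9% and 96.7% identity. Reads of these copies and of their parent genes cannot be cleanly told apart, so the level of *Idi1* and *Fdps*, and also of *Fdft1* with its copy *Gm6781* (97.4% identity), is uncertain by that share. Mean RPKM was 2.56 for *Gm13502* and 7.73 for *Gm3571*. The lowest r belonged to *Hist2h2aa1* (-0.59), *Ddrgk1* (-0.58) and *Abcg1* (-0.56), the last encoding a cholesterol exporter.

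As lists, the other genes of the system differed in their likeness to the mean z-score, with overlap between the lists. Of 16 other synthesis enzymes, 7 had an r above 0.5 with the mean z-score (43.8%, against 0.442% of all other tested genes), and their median r was 0.46. *Sc5d* (0.63) and *Lbr* (0.51) were among them, *Mvk* and *Mvd* were lower at 0.34 each, *Dhcr7* was at 0.16 and *Ebp* at -0.19. Of 12 fatty acid synthesis genes, which answer to SREBP-1, 1 was above 0.5 (*Elovl6*, 0.55), with a median of 0.39 and *Fasn* at 0.43. All 12 were above 0, as were 15 of the 16 other synthesis enzymes. Of 13 genes of SREBP processing and sterol sensing 0 were above 0.5, with a median of 0.12, *Scap* at -0.14 and *Srebf1*, the SREBP-1 gene, at 0.12. Of 13 uptake and transport genes 2 were above 0.5 (15.4%) and 5 were above 0. Their median was -0.11, with *Stard4* at 0.66, *Lrp8* at 0.45, *Lrp1* at -0.11 and *Npc2* at -0.36. Of 9 tested storage, oxidation and efflux genes 0 were above 0.5, with a median of -0.20, and 3 were above 0. These values of r are descriptions over the 50 tumors, in each of which all genes were read from the same library, so the depth and cell composition of that tumor enter both sides of the correlation.

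**Figure D5:**
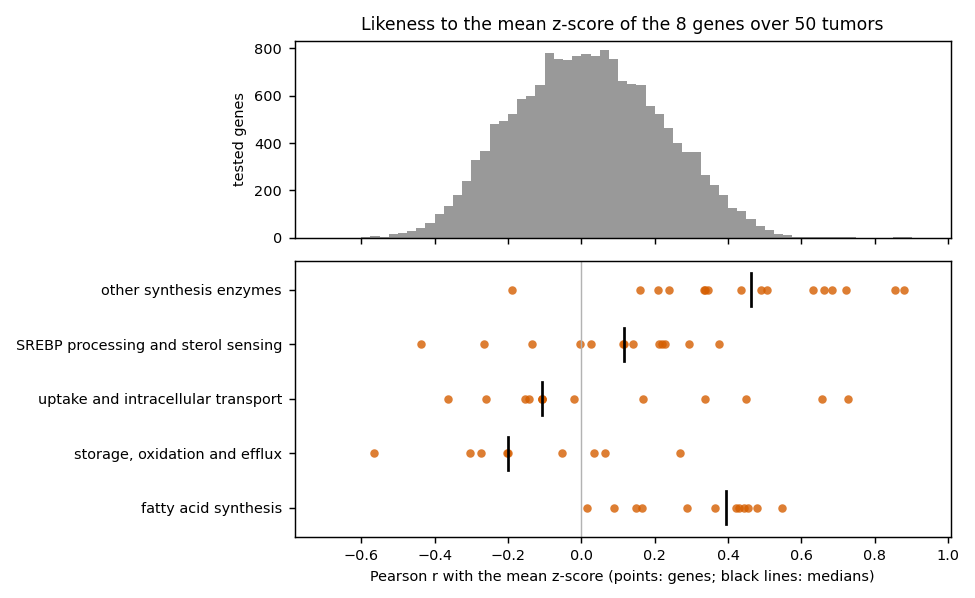
Pearson r over the 50 tumors between log2(RPKM + 0.5) of a gene and the mean z-score of the 8 genes: all other tested genes as a histogram (top, number of genes) and the genes of 5 lists as points with black lines for the medians (bottom). The other synthesis enzymes reach 0.88 with a median of 0.46, and the storage, oxidation and efflux list has a median of -0.20.

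In the comparisons of treatments none of these 5 lists had a gene called by limma at an adjusted p under 0.05, and the share of their 63 tested genes with an unadjusted p under 0.05 in the 7 comparisons ran from 3.17% (2 genes) to 14.3% (9 genes). The highest share was in insulin against vehicle, where 11.1% of all tested genes had such a p, and the lowest was in X10 against vehicle, where 11.0% had one, and in glargine against insulin, where 3.96% had one. Against vehicle, the genes with the smallest p were *Abca1* in insulin (0.82, SE 0.25, limma adjusted p = 0.291), *Abca1* and *Nceh1* together in glargine (0.52 and 0.38, adjusted p = 0.789 for both), *Stard4* in X10 (0.62, SE 0.27, adjusted p = 0.399) and *Scd1* in IGF1 (-1.21, SE 0.41, adjusted p = 0.361). *Abca1*, a cholesterol exporter gene, was at 18.6 RPKM in vehicle and 32.6 RPKM in insulin, and *Scd1*, a fatty acid desaturase gene, was at 55.3 RPKM in vehicle and 21.0 RPKM in IGF1. *Nceh1*, whose product hydrolyses cholesterol esters, had the next smallest p in insulin (89.6 RPKM, log2 fold change 0.58, limma adjusted p = 0.301) and in IGF1 (84.4 RPKM, log2 fold change 0.44, limma adjusted p = 0.443), with 10 of 10 insulin tumors and 8 of 10 IGF1 tumors above the vehicle mean. The sum of the 7 macrophage markers was also higher in the median of these groups. It ran from 297 over a median of 989 to 2691 RPKM in vehicle, from 537 over 1649 to 3320 in insulin, from 759 over 1284 to 2300 in glargine, from 598 over 1330 to 1823 in X10 and from 997 over 1709 to 3707 in IGF1, with 0 tumors having a macrophage marker at 0. The groups overlapped, and the part of these markers in the values of *Abca1* and *Nceh1* was not tested. In X10 against insulin, *Mbtps1*, whose product makes the initial cut in the SREBP proteins, was at 35.4 and 53.4 RPKM (log2 fold change -0.58, SE 0.16, limma adjusted p = 0.103), and 10 of 10 X10 tumors lay below the insulin mean. *Scap* had -0.33 in the same comparison (limma adjusted p = 0.176) and *Lrp1*, an endocytic receptor gene, -0.58 (adjusted p = 0.158).

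Levels of the 8 genes were set beside the mean z-scores of 8 marker lists and library size, 72 relations in all. The proliferation genes were related to *Idi1* with r = 0.59 and rho = 0.51 (permutation p = 1e-05 and 0.00018, adjusted p = 0.00072 and 0.0126), to *Hmgcs1* with r = 0.54 and rho = 0.50 (adjusted permutation p = 0.00252 and 0.0126) and to *Lss* with r = 0.44 and rho = 0.41 (adjusted permutation p = 0.0247 and 0.0424). Without the 2 farthest tumors these were 0.49, 0.48 and 0.34, and within treatment groups 0.60, 0.56 and 0.48. *Sqle* passed by rho (0.45, adjusted permutation p = 0.0293) but not by r (0.39, adjusted permutation p = 0.063), and all 8 genes had an r above 0. The summed RPKM of the 6 proliferation genes ran from 304 over a median of 543 to 770 in vehicle and from 388 over 497 to 691 in insulin. It ran from 428 over 555 to 747 in glargine, from 305 over 662 to 977 in X10 and from 254 over 562 to 1016 in IGF1. The part of proliferation in the differences between groups was not tested. IGF1_160, the tumor with the lowest mean z-score, also had the lowest proliferation sum.

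*Fdft1* was related to the 8 epithelial markers by r (0.45, adjusted permutation p = 0.0247) but not by rho (0.29, adjusted permutation p = 0.176), and r was 0.26 without the 2 farthest tumors and 0.38 within treatment groups (permutation p = 0.00724, not adjusted). The tumor vehicle_195, which had the highest *Fdft1*, had an epithelial sum of 1858 RPKM. Summed epithelial RPKM ranged from 12.2 to 4556 in vehicle, 70 to 574 in insulin, 165 to 585 in glargine, 68.0 to 1443 in X10 and 11.3 to 677 in IGF1, and 0 tumors had an epithelial marker at 0. *Insig1* was related to the 4 mesenchymal markers (r = 0.42, rho = 0.44, adjusted permutation p = 0.0351 and 0.0293). For adipocyte, macrophage, fibroblast, endothelial and skeletal muscle markers 0 of 8 genes passed by r. All 8 had a negative r with skeletal muscle (median -0.15), and *Lss* passed by rho (-0.41, adjusted permutation p = 0.0424) but not by r (-0.32, adjusted permutation p = 0.142). With epithelial, adipocyte and skeletal muscle scores as covariates, 0 of 8 genes were called in any comparison of groups.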

How the data were processed

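RNA of 50 mammary tumors was Poly-A selected, prepared with the Ion Total RNA-Seq kit and sequenced on the PI chip. Per the labels and methods, the authors aligned reads to GRCm38 with TopHat2 2.0.10 and Bowtie2, used HTSeq 0.6.1 to count the reads of each gene, and used DESeq2 1.2.10 for their own tests, which were not repeated. The authors deposited RPKM values, reads divided by library size and gene length, with no log transformation. Reads and library sizes were recovered from the steps of low values (1500 genes, at least 93.3% of values whole in each tumor). The recovered depth covers counting error only.

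Of 37701 genes, 16733 whose RPKM averaged 0.5 or more were tested with limma 3.58.1 (R 4.3.3) on log2(RPKM + 0.5), with all 5 groups in the fit, an intensity trend and Benjamini-Hochberg adjustment over all tested genes. The log-scale model replaces a count test because the table holds RPKM. Samples were grouped by title, and the tumors titled untreated were taken as vehicle because the series' design names vehicle. One tumor titled IFG1 was taken as IGF1. Relations used permutation tests with 100000 resamples. The script was tested on simulated data. Promoters and pseudogene copies (BLAST 2.17.0, at least 85% identity over 200 bases) came from RefSeq and GENCODE M21. Alternatives were other pseudocounts, filters, scalings, covariates and samples.

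The members and gene lists were chosen with earlier results of these data known. The naming rule was all 8 members; for each comparison, the listed genes under an adjusted p of 0.05 or else the 3 with the smallest p, of which some are given; and the 10 most and 3 least alike genes, of which some are not reported here. Other listed genes are named for their level or likeness only. The limma p-values take their error from the spread between tumors of separate mice.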

Additional observations from a re-analysis of the deposited data

Results flagged for a closer look

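In 7 of 40 combinations of a gene and a treatment group, 1 tumor stood apart from the other 9 by Dixon's test of the gap to the nearest tumor over the range of the group. Chance flags about 1 in 20 such groups where values are normally spread. The test was run on RPKM without log transformation, which stretches high values, so 7 of 40 cannot be set against that share. Each flag was for the highest tumor of its group. The 8 genes share tumors, so the flags are not independent. The tumor glargine_62 stood apart in *Hmgcs1* (39.3 RPKM, nearest 18.3, ratio 0.703), *Sqle* (54.2 RPKM, nearest 34.6, ratio 0.482) and *Fdft1* (19.8 RPKM, nearest 12.8, ratio 0.51). X10_113 stood apart in *Fdft1* (20.3 RPKM, nearest 12.0, ratio 0.772), *Lss* (11.8 RPKM, nearest 8.95, ratio 0.488), *Insig1* (21.8 RPKM, nearest 13.2, ratio 0.569) and *Fdps* (76.4 RPKM, nearest 50.5, ratio 0.471). X10_113 had 29.6 M reads and glargine_62 had 44.1 M reads. Without both tumors and IGF1_160, limma called 0 of 8 genes in each comparison.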

How the results depend on the processing

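In each of the 7 comparisons and the F test, 0 of 8 genes were called under every alternative run. The median log2 fold change of the 8 was near 0 in glargine and X10 against vehicle (0.04 and 0.09) and moved to -0.06 and -0.01 without X10_113, glargine_62 and IGF1_160, and to 0.00 in glargine with marker scores as covariates. Of 616 log2 fold changes of single genes under an alternative, 23 changed sign, each between -0.10 and 0.09, leaving aside *Srebf2* and *Lss* where the value was 0.00 to begin with. Under quantile normalization these were *Lss* in insulin (-0.02), glargine (-0.01) and X10 (0.01) against vehicle and in X10 against insulin (0.02), and *Insig1* in X10 and IGF1 against the rest (0.01). With upper quartile scaling *Lss* in X10 was at 0.02. With marker scores as covariates, *Hmgcs1* (-0.02), *Insig1* (-0.03) and *Fdps* (-0.01) in glargine and *Fdps* in IGF1 (0.01) changed sign. With library size as a covariate, a choice made once the data had been seen, *Lss* (-0.02) and *Idi1* (-0.03) in insulin, *Lss* (-0.03) and *Fdps* (-0.06) in glargine and *Fdft1* in X10 (-0.08) did so. Without the 3 tumors just named, likewise chosen then, values were -0.08 for *Hmgcs1*, -0.06 for *Lss* and -0.10 for *Fdps* in glargine, -0.08 for *Fdft1*, -0.06 for *Insig1* and -0.02 for *Fdps* in X10, 0.09 for *Idi1* in IGF1, and -0.03 for *Hmgcs1* in glargine against insulin. The causes were not tested. The log2 fold change of *Sqle* in X10 against insulin stayed between 0.71 and 0.85, with an adjusted limma p between 0.115 and 0.294.

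The number of genes called over the whole table moved more, although none was one of the 8. Insulin against vehicle (0 genes) gave 2 genes with a mean RPKM minimum of 5, 2 with quantile normalization, 2 with upper quartile scaling and 3 with library size as a covariate. X10 against vehicle (11 genes) gave 24 with all genes of nonzero value, 4 with only the compared groups in the fit and 1 with library size as a covariate. IGF1 against vehicle (1 gene) gave 0 with the minimum of 5, 0 with marker scores, 0 with only the compared groups and 2 without the 3 tumors. X10 and IGF1 against the rest (26 genes) gave 11 with all nonzero genes, 17 with the minimum of 5, 51 with upper quartile scaling, 13 with only the compared groups (2 sets in place of 5 groups) and 10 with library size. X10 against insulin (17 genes) gave 8 with all nonzero genes, 11 with marker scores, 31 with only the compared groups, 5 with library size and 8 without the 3 tumors. The F test (17 genes) gave 0 with all nonzero genes, 6 with quantile normalization, 7 with marker scores, 0 with library size and 0 without the 3 tumors. The cause was not tested.

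Of 224 relations between pairs of the 8 genes under an alternative, 223 passed as before, and *Fdft1* with *Insig1* did not without the 3 tumors (r = 0.20). No paired analysis was possible because the replicate numbers are those of single mice and are not shared between groups.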

Other observations

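The summed RPKM of the 6 skeletal muscle genes was high in tumors on both sides of the order by mean z-score. Of tumors with a low mean z-score it was 4591 in glargine_64, 2625 in vehicle_186, 1856 in insulin_9 and 1072 in glargine_53, but 19.2 in IGF1_160 and 15.8 in IGF1_158. Among tumors with a mean z-score above 0 it was 2363 in X10_105, 1736 in IGF1_135, 1460 in glargine_78, 1436 in IGF1_145 and 693 in insulin_15. The part of adjoining muscle in these values was not tested.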
